A study of Homo sapiens with 8 samples.

Results

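The 10 genes described here, CD14, TLR2, TLR4, ITGAM, ITGAX, FCGR1A, CD86, CD36, FCN1 and VCAN, are markers used to follow the maturation of monocytes. They were taken by symbol from a list drawn up with earlier results of these data known, the rule itself using no measured value, and all 10 were among the 38551 genes with counts. To see whether these markers moved when the immunoproteasome was inhibited, RNA-sequencing counts of MOLM-13 cells given 100 nM PR-957 (ONX-0914) for 72 h were compared with those of MOLM-13 cells given the diluent DMSO for 72 h, with 4 libraries per group. MOLM-13 is a human acute myeloid leukemia line with a KMT2A fusion, and all libraries come from this one line. PR-957 blocks PSMB8, a catalytic subunit of the immunoproteasome.

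Monocytes leave the bone marrow as cells that sense bacterial products, take up particles and present antigen, and each of these tasks has its own surface proteins. CD14 delivers lipopolysaccharide and lipoproteins to the toll-like receptors TLR4 and TLR2, which signal through MYD88. ITGAM (CD11b) and ITGAX (CD11c) pair with ITGB2 to form the adhesion and complement receptors CR3 and CR4. FCGR1A (CD64) is the high-affinity receptor for IgG, CD36 is a scavenger receptor for lipids, and CD86 is a co-stimulatory ligand for CD28 on T cells. FCN1 (ficolin-1) and VCAN (versican) are secreted products of monocytes, a pattern-recognition lectin and a matrix proteoglycan, so not all 10 are membrane proteins.

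CD36, FCN1 and TLR2 rose and CD86 fell with PR-957, while TLR4, ITGAM, ITGAX and FCGR1A were not called. CD14 and VCAN had too few counts to be tested. CD36 was the only tested marker whose groups did not overlap. It was called in all 19 alternative fits (other tools, scalings, filters or terms, or fewer libraries). The other 3 calls were less stable: TLR2 was called in 15 and CD86 in 13 of 19, and FCN1 in 11 of 17. CD86 was not called without DMSO replicate 4. Of the 8 tested markers, 4 passed an adjusted p of 0.05 (edgeR quasi-likelihood test), 3 higher and 1 lower, and their median log2 fold change (log2FC, PR-957 over DMSO) was 0.25. Over all 13179 genes tested 46.6% were called, 23.1% higher and 23.5% lower, with a median of 0.0030. Groups did not overlap in 42.5% of genes tested, and 5.02% were called with at least a 2-fold change, as were CD36 and FCN1. The share of markers called was thus close to that of all genes, and the counts over 8 markers are a description.

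Total counts per library ran from 16675036 to 23111223, and the deepest library was DMSO replicate 4. This library stood apart. On the second principal component of log2 CPM, which held 13.5% of the variance, it lay at 27.8, where the other 7 libraries lay between -14.4 and 11.8. CPM are counts scaled to a fixed library size, after TMM normalization. The same component placed replicates 1 and 2 of both groups below 0 and replicates 3 and 4 above 0. Values within each pair of replicates are therefore given as well. No label names such pairs. They were read from these same libraries, and DMSO replicate 3 lay at only 2.02, far from DMSO replicate 4. Fits within replicates 3 and 4 thus lean on DMSO replicate 4, and p-values within pairs are a description. Of the 8 tested markers, 6 were highest in DMSO replicate 4 among the DMSO libraries, against 29.5% of all genes tested. Its CPM was 2.49 times the mean of DMSO replicates 1 to 3 for ITGAX and 2.02 times for CD86, a ratio of at least 2 that 2.17% of genes tested reached. ITGAM, TLR4, FCN1 and CD36 had ratios of 1.75, 1.73, 1.72 and 1.55, whereas TLR2 and FCGR1A had ratios of 0.981 and 0.892.

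**Figure D1:**
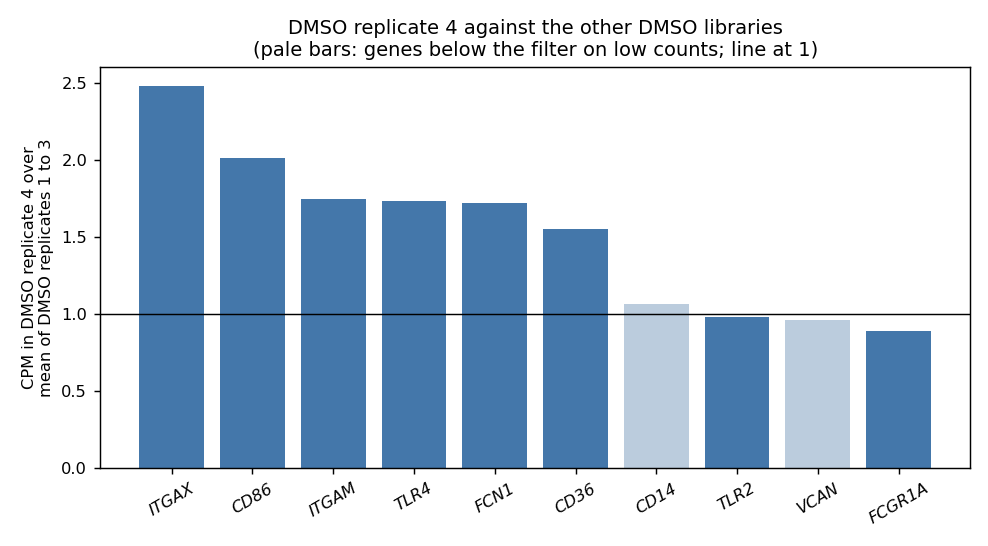
Bars give, for each marker, CPM in DMSO replicate 4 divided by the mean CPM of DMSO replicates 1 to 3, with a line at 1 for no difference. ITGAX (2.49) and CD86 (2.02) stand highest, and FCGR1A (0.892) is lowest.

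The line carried the genes of a myeloid leukemia. All 8 identity genes examined were tested, among them CEBPA, a myeloid transcription factor, at 564 ± 25.6 CPM and CD33, a myeloid surface lectin, at 37.5 ± 2.25 CPM in DMSO (SD, n = 4). Of the 8, 1 was higher and 5 were lower, where 23.1% and 23.5% of all genes tested were. SPI1, which encodes the myeloid factor PU.1, rose from 158 ± 8.24 to 181 ± 8.04 CPM, and FLT3, a receptor tyrosine kinase, fell from 340.4 ± 7.24 to 173 ± 19.7 CPM. Markers of lineages other than neutrophils were low, though CD14, VCAN and FCN1 were as low, at 0.125, 0.135 and 0.659 CPM in DMSO. DESeq2 called 1 erythroid marker higher. Summed over the list, T cell markers reached at most 0.655 CPM, erythroid markers 0.619 CPM, dendritic cell markers 1.01 CPM, B cell markers 1.55 CPM and megakaryocyte markers 2.66 CPM in any library, and CD3E, PF4 and GP1BA had 0 counts throughout. Neutrophil markers summed to between 240.5 and 269.7 CPM in DMSO and between 562.9 and 646.6 CPM in PR-957 libraries. Of these 6 markers 3 were tested and 2 were higher, MPO, the peroxidase of primary granules (log2FC 1.53), and CSF3R, the G-CSF receptor (0.25), while CEACAM8 had 0 counts. Their part in the changes of the monocyte markers was not tested. In bulk RNA, a change in the number of cells that carry a transcript and a change in its amount per cell cannot be told apart.

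Levels of the 10 markers in DMSO, per kilobase of gene length, differed widely. FCGR1A was highest in all 8 libraries, at 20.2 ± 1.47 CPM per kb in DMSO and 18.9 ± 1.41 in PR-957 (SD, n = 4). ITGAX (6.51 ± 3.54) and ITGAM (5.07 ± 1.5997) followed in DMSO and overlapped each other. Next in DMSO came TLR2 (1.44 ± 0.111), CD86 (1.04 ± 0.479), CD36 (0.585 ± 0.167) and TLR4 (0.380 ± 0.178), where each overlapped the next. FCN1 (0.0868 ± 0.0291), CD14 (0.0759 ± 0.0529) and VCAN (0.0109 ± 0.00814) were lowest. All DMSO values of TLR4 lay above those of FCN1, while FCN1 overlapped CD14 and CD14 overlapped VCAN. With PR-957, CD36 stood at 1.90 ± 0.112 CPM per kb, below the integrins and overlapping TLR2 at 1.76 ± 0.188. CD86 stood at 0.593 ± 0.134 CPM per kb with PR-957, overlapping TLR4 at 0.712 ± 0.211.

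**Figure D2:**
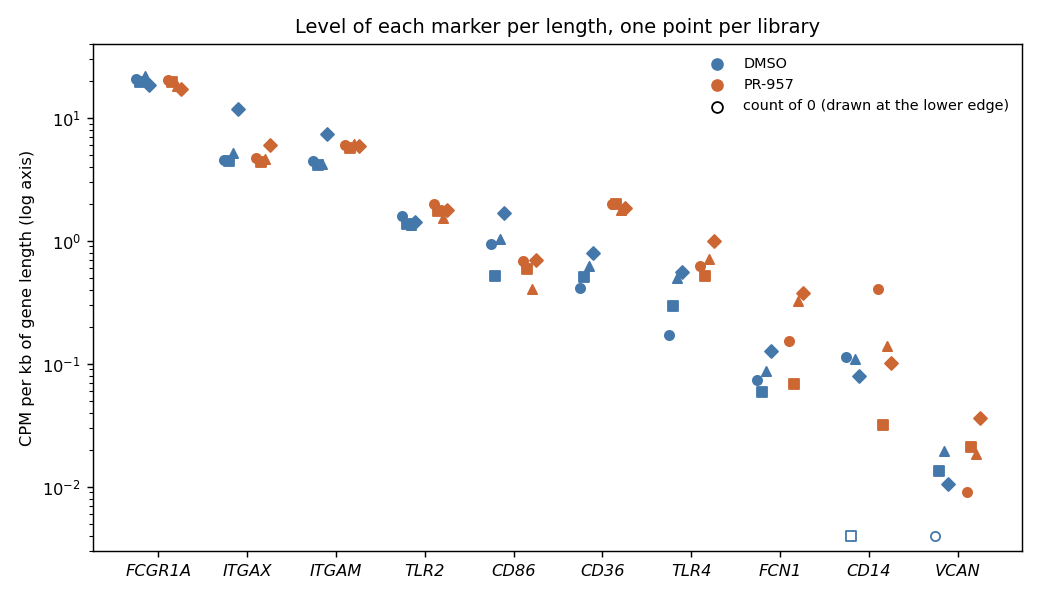
Each point is 1 library, with CPM per kb of gene length on a log axis and markers ordered by their mean in DMSO. FCGR1A lies above all other markers in every library, and a count of 0 (CD14 in DMSO replicate 2, VCAN in DMSO replicate 1) is drawn as an open point at the lower edge.

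Receptors for bacterial products were examined first. CD14 (chromosome 5, 140631728 to 140633701, minus strand, hg38) is the defining surface marker of classical monocytes, and its transcript was close to the limit of detection. Counts in DMSO replicates 1 to 4 were 3, 0, 3 and 3, and those in PR-957 replicates 1 to 4 were 12, 1, 5 and 3. The groups overlapped, and PR-957 replicate 1 held most of the counts of its group. Group totals of 9 and 21 counts gave a PR-957 to DMSO ratio of 2.23 after scaling, with a 95% exact counting interval from 0.979 to 5.53. Without PR-957 replicate 1 the ratio was 1.25 (0.439 to 3.55). Intervals excluded 1 when DMSO replicate 1 or 3 or PR-957 replicate 2 or 4 was left out, with ratios of 2.62, 2.59, 2.83 and 2.49. A difference in CD14 was thus not firmly detectable at this depth. A fit that kept all genes with a count gave CD14 a log2FC of 1.12 with SE 0.75 and an adjusted p of 0.310.

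TLR2 (chromosome 4, 153684080 to 153710643, plus strand) recognises bacterial lipoproteins. It had 15.1, 12.98, 12.8 and 13.4 CPM in DMSO replicates 1 to 4 and 18.7, 16.5, 14.4 and 16.8 CPM in PR-957 replicates 1 to 4. The PR-957 libraries lay higher, with an overlap between DMSO replicate 1 and PR-957 replicate 3. The log2FC was 0.29 (SE 0.098, adjusted p = 0.0192). TLR2 no longer passed when DMSO replicate 2 (0.0521) or 3 (0.0554) or PR-957 replicate 1 (0.0882) was left out, and adjusted p ran from 0.00389 to 0.188 over the 19 alternatives. Within replicates 1 and 2 the log2FC was 0.33 (adjusted p = 0.0255) and within replicates 3 and 4 it was 0.24 (adjusted p = 0.188).

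TLR4 (chromosome 9, 117704403 to 117724735, plus strand) is the signalling receptor for lipopolysaccharide. Its levels were 2.19, 3.79, 6.34 and 7.12 CPM in DMSO replicates 1 to 4 and 7.97, 6.58, 9.04 and 12.9 CPM in PR-957 replicates 1 to 4. Both groups were higher in replicates 3 and 4 than in replicates 1 and 2, and across the 8 libraries they overlapped between DMSO replicate 4 and PR-957 replicate 2. With all libraries the log2FC of 0.89 (SE 0.37) did not pass the threshold (adjusted p = 0.0870). Within replicates 1 and 2 the groups did not overlap and the log2FC was 1.26 (SE 0.22, adjusted p = 7.6e-06). Within replicates 3 and 4 they did not overlap either, with a log2FC of 0.69 (SE 0.19, adjusted p = 0.0103). Groups of 2 libraries often separate by chance, and the pairs were read from these same libraries. The share of all genes that separate within pairs was not taken, so these values are a description. A term for the 2 pairs of replicates gave 0.93 (SE 0.17, adjusted p = 0.000109), and the fit without DMSO replicate 4 gave 1.14 (adjusted p = 0.0362). Over the 19 alternatives adjusted p ran from 7.6e-06 to 0.177, and 5 passed the threshold.

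Of the 10 markers, 9 had an entry in the RefSeq promoter table (GRCh38.p14), 7 of them with 1 start. For TLR4, ITGAM and FCN1 the 250 bases before that start held no exon of the counted gene models, and these are printed 5′ to 3′ on the strand of the gene, to show the sequence next to the start of a receptor, an integrin and a secreted lectin. Capitals mark GAGGAA, a core of the sites of PU.1, and GGGCGG, a core of the sites of Sp1, on either strand (TTCCTC and CCGCCC where the match lies on the other strand). The C/EBP core TTGCNNAA and the TATA box TATAAA had no match in these 3 windows, and 9.05% and 10.7% of all promoter entries held them.
TLR4 (chr9:117704153-117704402, plus): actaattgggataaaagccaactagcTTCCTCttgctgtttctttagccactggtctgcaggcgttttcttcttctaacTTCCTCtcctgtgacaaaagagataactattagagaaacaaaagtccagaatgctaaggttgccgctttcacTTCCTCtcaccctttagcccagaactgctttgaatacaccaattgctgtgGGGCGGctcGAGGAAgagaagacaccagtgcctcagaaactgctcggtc
ITGAM (chr16:31259725-31259974, plus): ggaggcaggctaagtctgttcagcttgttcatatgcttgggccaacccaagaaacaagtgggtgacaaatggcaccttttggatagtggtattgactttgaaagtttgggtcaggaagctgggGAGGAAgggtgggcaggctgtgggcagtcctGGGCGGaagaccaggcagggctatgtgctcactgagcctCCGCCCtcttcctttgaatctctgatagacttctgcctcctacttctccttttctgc
FCN1 (chr9:134917913-134918162, minus): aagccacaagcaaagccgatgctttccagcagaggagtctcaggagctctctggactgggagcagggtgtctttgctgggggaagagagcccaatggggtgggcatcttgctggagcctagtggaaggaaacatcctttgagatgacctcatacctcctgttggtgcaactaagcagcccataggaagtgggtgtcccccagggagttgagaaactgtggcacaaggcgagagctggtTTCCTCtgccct
The PU.1 core lay 224, 171, 99 and 40 bases before the start of TLR4, 127 bases before that of ITGAM and 12 bases before that of FCN1. Among all 35116 promoter entries, 23.6% held it in the same window, and 42.6% held the Sp1 core. Of the 7 markers with 1 start, 5 held the PU.1 core and 4 the Sp1 core. These matches describe the letters and are not evidence of binding.

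Partners of these receptors did not move in 1 direction. Of 26 toll-like receptor partners, 19 were tested, 4 were higher, 4 lower and 11 not called, and their median log2FC was 0.016. Over all genes tested 23.1% were higher and 23.5% lower, so both counts lie near the shares of all genes. DESeq2 called 4 of these partners higher and 1 lower. LY96 (MD-2), the chain that TLR4 needs to bind lipopolysaccharide, had 17, 26, 16 and 40 counts in DMSO and 20, 24, 18 and 19 counts in PR-957 libraries, with a log2FC of -0.32 (SE 0.28, adjusted p = 0.366). The largest increase was that of CD180, a TLR4 relative of B cells and myeloid cells, from 10.3 ± 1.19 to 16.3 ± 1.68 CPM (log2FC 0.67, SE 0.11, adjusted p = 5.01e-05). MYD88, the shared adaptor, rose from 31.8 ± 1.41 to 43.8 ± 1.14 CPM, a log2FC of 0.46 (adjusted p = 7.23e-06). The largest decrease was that of TLR1, which pairs with TLR2, from 2.99 ± 0.944 to 1.94 ± 0.250 CPM (log2FC -0.64, adjusted p = 0.0318). The call for TLR1 was lost when DMSO replicate 2 (0.0530) or 4 (0.158) was left out, without PR-957 replicate 1 (0.0652), 2 (0.0523) or 4 (0.0811), with DESeq2 (0.0516), with library totals alone (0.0602) and within replicates 1 and 2 (0.302). Without DMSO replicate 4 its log2FC was -0.40.

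Next, the integrin chains were examined. ITGAM (chromosome 16, 31259975 to 31332877) and ITGAX (chromosome 16, 31355167 to 31382999) lie next to each other on the plus strand. ITGAM had 21.4, 19.8, 20.5 and 35.95 CPM in DMSO replicates 1 to 4 and 28.9, 27.3, 29.6 and 28.6 CPM in PR-957 replicates 1 to 4. The PR-957 libraries lay close together and above DMSO replicates 1 to 3, and DMSO replicate 4 lay above all of them. With all libraries ITGAM was not called (log2FC 0.22, SE 0.19, 95% interval -0.23 to 0.66, adjusted p = 0.394). Without DMSO replicate 4 the mean of 20.6 ± 0.799 CPM (SD, n = 3) compared with 28.6 ± 0.959 CPM in PR-957, a log2FC of 0.47 (SE 0.075, adjusted p = 2.42e-05). Replicates 1 and 2 only gave 0.45 (adjusted p = 0.000354) and replicates 3 and 4 only gave 0.023 (adjusted p = 0.967). Over the 19 alternatives adjusted p ran from 2.42e-05 to 0.967, and the fits without DMSO replicate 4 and with replicates 1 and 2 passed the threshold.

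ITGAX was not called, and DMSO replicate 4 was again far above the other libraries. It had 22.8, 22.3, 25.9 and 58.8 CPM in DMSO replicates 1 to 4, against 23.5, 21.7, 23.3 and 30.3 CPM in PR-957 replicates 1 to 4. DMSO replicates 1 to 3 lay within the range of the PR-957 libraries. The log2FC was -0.42 with all libraries (SE 0.37, 95% interval -1.31 to 0.48, adjusted p = 0.403) and 0.056 without DMSO replicate 4 (SE 0.10, adjusted p = 0.682). Within replicates 1 and 2 it was 0.0015 and within replicates 3 and 4 it was -0.69 (adjusted p = 0.993 and 0.490). The difference between the changes of ITGAM and ITGAX was not tested.

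**Figure D3:**
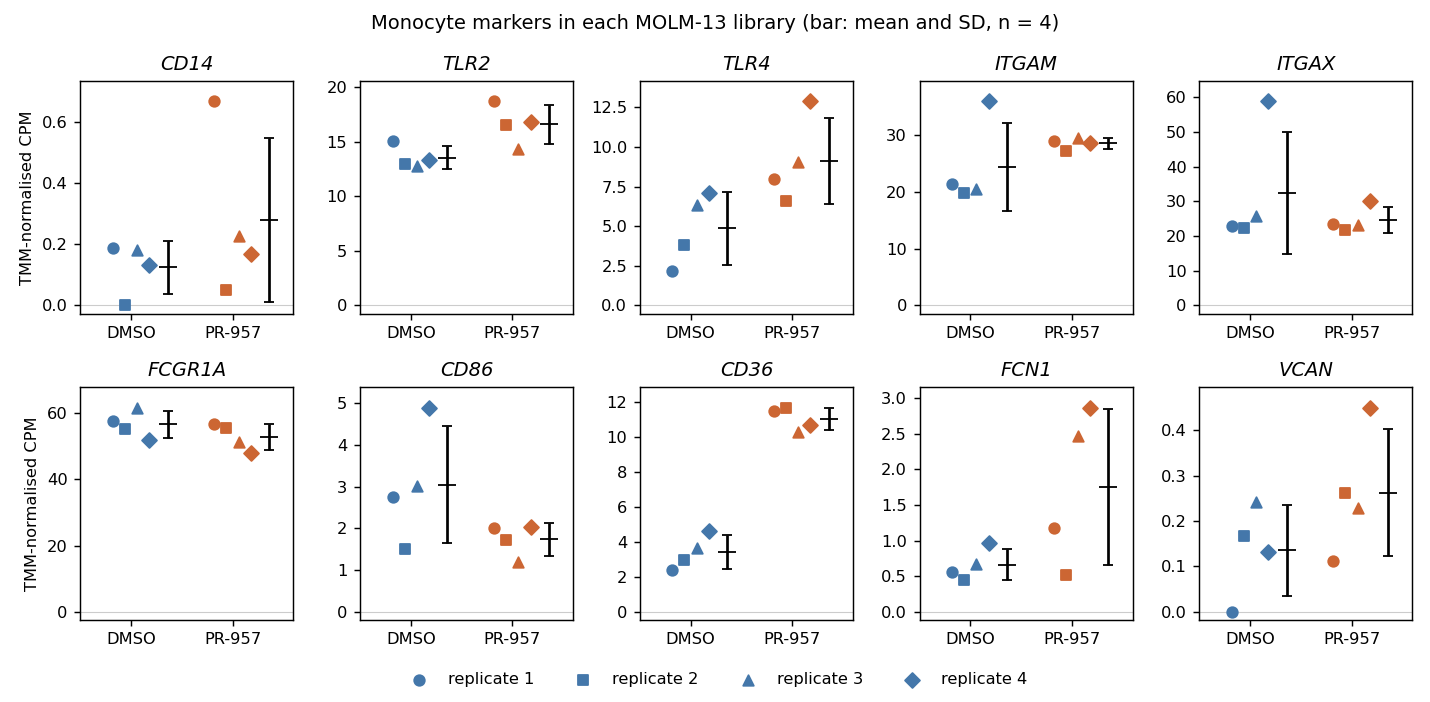
Points give TMM-normalised CPM of each marker in the 8 libraries, with a symbol for each replicate number, and the black bar gives the mean and SD of each group (n = 4). CD36 separates the groups fully (2.38 to 4.63 against 10.3 to 11.6 CPM). DMSO replicate 4 lies above the other DMSO libraries for 6 markers, ITGAM, ITGAX, CD86, TLR4, FCN1 and CD36.

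Partners of these integrins were mostly lower. This list held other integrin chains, the adaptors FERMT3 and TLN1, and the integrin ligands ICAM1, ICAM2 and ICAM3. Of 14 genes in this list, 13 were tested, 9 were lower, 2 higher and 2 not called, with a median log2FC of -0.30. Among all genes tested, 23.5% were lower and 23.1% higher. DMSO replicate 4 was the highest DMSO library for 7 of these 13, against 29.5% of all genes tested. ITGB2 (CD18), the beta chain of both CR3 and CR4, went from 329.5 ± 43.8 to 281 ± 5.65 CPM, a log2FC of -0.23 (adjusted p = 0.0151). This call was lost within replicates 1 and 2 (0.178) and when libraries were scaled by their totals alone (0.123). Without DMSO replicate 4 the log2FC of ITGB2 was -0.14 (adjusted p = 0.0275). The largest decrease was that of ITGAL (CD11a), the third alpha chain that pairs with ITGB2 on leukocytes, from 324 ± 22.7 to 197 ± 6.03 CPM (log2FC -0.72, SE 0.057, adjusted p = 6.03e-09). ITGB7, a beta chain of gut-homing integrins, showed the largest increase, from 6.02 ± 0.742 to 8.52 ± 0.656 CPM (log2FC 0.49, adjusted p = 0.00408), and was not called within replicates 3 and 4 (0.203). Scaling by library totals alone shifted the median of all genes tested to 0.081, with 4066 higher and 2353 lower in place of 3045 and 3098.

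FCGR1A (chromosome 1, 149782071 to 149792518, plus strand) was the most abundant of the 10 markers and changed little. It had 57.7, 55.2, 61.8 and 52.0 CPM in DMSO replicates 1 to 4, against 56.8, 55.5, 51.4 and 48.1 CPM in PR-957 replicates 1 to 4, and the groups overlapped. The log2FC was -0.097 (SE 0.068, 95% interval -0.24 to 0.046, adjusted p = 0.259). FCGR1A has 2 near-identical copies on the same chromosome, FCGR1B and FCGR1CP, and the counting command held no option to count fragments that map to more than 1 place, so its level is uncertain. FCGR1B went from 7.68 ± 0.800 to 5.81 ± 0.798 CPM and FCGR1CP from 6.56 ± 0.496 to 4.39 ± 0.3898 CPM (adjusted p = 0.0229 and 0.00243). With the counts of all 3 genes summed, a fit added after the data were seen, the log2FC was -0.17 (SE 0.063, adjusted p = 0.0356).

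Of 12 Fc receptor partners, 9 were tested, 1 was higher, 2 lower and 6 not called, with a median log2FC of -0.0022. The shares over all genes tested were 23.1% higher and 23.5% lower, and neither count exceeds its share. FCER1G, the signalling chain that FCGR1A needs at the surface, averaged 1.94 ± 0.914 CPM with DMSO against 2.81 ± 1.07 CPM with PR-957 (log2FC 0.50, SE 0.32, adjusted p = 0.215), and was called only without DMSO replicate 4 (0.90, adjusted p = 0.0145) among 19 alternatives. Leaving out 1 of the other libraries gave FCER1G a log2FC from 0.30 (without PR-957 replicate 4, adjusted p = 0.498) to 0.68 (without PR-957 replicate 2, adjusted p = 0.0829). FCGRT, the neonatal Fc receptor, rose from 31.2 ± 3.93 to 41.2 ± 3.68 CPM (log2FC 0.40, adjusted p = 0.00112). Within replicates 3 and 4 the log2FC of FCGRT was 0.22 and was not called (adjusted p = 0.0950).

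CD86 (chromosome 3, 122055362 to 122121143, plus strand) was the only marker called lower. It had 2.76, 1.504, 3.02 and 4.89 CPM in DMSO replicates 1 to 4, against 2.01, 1.72, 1.19 and 2.02 CPM in PR-957 replicates 1 to 4, from 233 and 131 counts in all. DMSO replicate 4 was the highest library, DMSO replicate 2 lay within the range of the PR-957 libraries, and the groups overlapped. The log2FC was -0.84 (SE 0.30, adjusted p = 0.0302). Without DMSO replicate 4 it was -0.49 (SE 0.27, adjusted p = 0.149). The call was also lost without DMSO replicate 3 (0.0549), PR-957 replicate 2 (0.0621) or PR-957 replicate 3 (0.0976) and with limma-voom (0.0656). Within replicates 1 and 2 the log2FC was -0.18 (adjusted p = 0.699), and within replicates 3 and 4 it was -1.34 (adjusted p = 0.00591). Over the 19 alternatives adjusted p ran from 0.00214 to 0.699.

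B7 family members and other co-stimulatory genes gave 3 lower and 0 higher among 6 tested of 9, with a median log2FC of -0.44 (edgeR). Among all genes tested, 23.5% were lower and 23.1% higher. At an unadjusted p under 0.05, and with DESeq2, the counts were again 3 lower and 0 higher. These counts use the same 8 libraries, so they do not address DMSO replicate 4. It was the highest DMSO library for 5 of the 6 genes. For 2 of them it was at least 2 times the mean of DMSO replicates 1 to 3. CD40, a co-stimulatory receptor of antigen-presenting cells, averaged 3.19 ± 1.41 CPM with DMSO against 1.79 ± 0.671 CPM with PR-957 (log2FC -0.86, SE 0.31, adjusted p = 0.0332). DMSO replicate 4 held 118 of its 245 DMSO counts, a ratio of 2.03 to the other DMSO libraries in CPM. Without that library the log2FC was -0.51 (adjusted p = 0.140), and the call was also lost without DMSO replicate 1 (0.0501) or PR-957 replicate 2 (0.0919), 3 (0.0940) or 4 (0.0914) and within replicates 1 and 2 (0.657). CD80, the closest relative of CD86, had 1 count over all DMSO libraries and 8 over all PR-957 libraries, too few to test.

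CD36 (chromosome 7, 80602207 to 80679277, plus strand) showed the largest change of the 8 tested markers. Counts were 38, 53, 60 and 106 in DMSO and 206, 223, 225 and 190 in PR-957 replicates 1 to 4. In CPM this was 2.38, 2.95, 3.62 and 4.63 in DMSO and 11.5, 11.6, 10.3 and 10.7 in PR-957. Every PR-957 library lay above every DMSO library. CD36 rose from 3.40 ± 0.967 to 11.02 ± 0.649 CPM, 3.20-fold, with a log2FC of 1.68 (SE 0.16, 95% interval 1.34 to 2.02, adjusted p = 1.03e-07). Its log2FC was 2.11 within replicates 1 and 2, 1.32 within replicates 3 and 4 and 1.88 without DMSO replicate 4, and it passed the threshold in all 19 alternatives tried (adjusted p from 1.21e-25 to 7.08e-05). The promoter table gives 6 starts for CD36, and counts per gene do not show which was used.

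**Figure D4:**
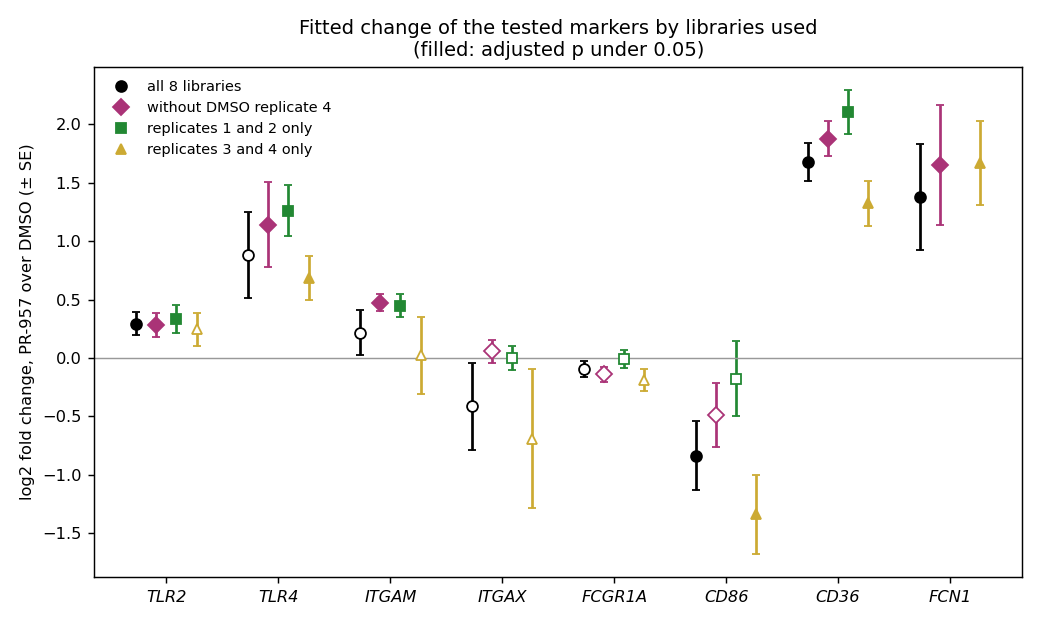
Points give the log2FC of PR-957 over DMSO with its SE for the 8 tested markers, fitted with all libraries, without DMSO replicate 4, and within each pair of replicates, and filled points passed an adjusted p of 0.05. CD36 is filled in all 4 fits, ITGAX moves from -0.42 to 0.056 without DMSO replicate 4, and FCN1 has no point for replicates 1 and 2, where it did not pass the filter on low counts.

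Of 16 other scavenger receptors and lectins, 9 were tested, 5 were higher, 0 lower and 4 not called (edgeR), with a median log2FC of 0.32. Among all genes tested, 23.1% were higher and 23.5% lower. At an unadjusted p under 0.05, 6 were higher and 0 lower, and DESeq2 called 5 higher and 0 lower. The largest increase was that of CLEC5A, a myeloid lectin that signals through TYROBP, from 3.25 ± 1.08 to 10.4 ± 3.30 CPM (log2FC 1.66, SE 0.28, adjusted p = 0.000621). MARCO, a class A scavenger receptor of macrophages, rose from 1.18 ± 0.242 to 2.44 ± 0.864 CPM (log2FC 1.05, adjusted p = 0.00421). CD68, a lysosomal glycoprotein of mononuclear phagocytes, was not called (69.7 ± 15.6 and 87.5 ± 2.94 CPM, log2FC 0.32, adjusted p = 0.0908). Other uptake receptors of mature macrophages, MSR1, MRC1, CLEC7A and OLR1, had at most 2 counts in any library, and CLEC4E had 0 counts throughout.

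The secreted markers had few counts. FCN1 (chromosome 9, 134903232 to 134917912, minus strand) had 9, 8, 11 and 22 counts in DMSO and 21, 10, 54 and 51 counts in PR-957 replicates 1 to 4. In CPM this was 0.564, 0.446, 0.664 and 0.961 in DMSO and 1.17, 0.522, 2.47 and 2.87 in PR-957. PR-957 replicates 3 and 4 were clearly highest, whereas PR-957 replicate 2 lay within the range of the DMSO libraries. FCN1 rose 2.60-fold, with a log2FC of 1.38 (SE 0.46, 95% interval 0.40 to 2.36, adjusted p = 0.0229). FCN1 no longer passed without DMSO replicate 1 (0.0647), 2 (0.0659) or 3 (0.0540), without PR-957 replicate 3 (0.0699) or 4 (0.0689) and with limma-voom (0.108). Without DMSO replicate 4 the log2FC was 1.65 (adjusted p = 0.0165), and within replicates 3 and 4 it was 1.67 (adjusted p = 0.00196). Over 17 alternatives adjusted p ran from 0.000159 to 0.108.

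VCAN (chromosome 5, 83471674 to 83582303, plus strand) had 0, 3, 4 and 3 counts in DMSO and 2, 5, 5 and 8 counts in PR-957 replicates 1 to 4. The groups overlapped, and the lone count of 0 allows up to 0.188 CPM in DMSO replicate 1. Totals of 10 and 20 counts put the ratio at 1.91 (95% exact counting interval 0.854 to 4.57), so a difference was not detectable at this depth. Without PR-957 replicate 4 the ratio was 1.49 (0.591 to 3.86).

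Of 10 relatives and partners of FCN1 and VCAN, 5 were tested, 3 were higher, 1 lower and 1 not called, with a median log2FC of 0.92. Among all genes tested, 23.1% were higher and 23.5% lower. SRGN (serglycin), the proteoglycan of secretory granules, rose from 1519.6 ± 130.02 to 2882 ± 155 CPM, a log2FC of 0.92 (adjusted p = 1.79e-09). The largest increase at an average of at least 1 on the log2 CPM scale was that of ADAMTS1, a protease that cleaves versican, from 7.01 ± 0.948 to 17.0 ± 1.38 CPM (log2FC 1.28, SE 0.11, adjusted p = 2.47e-08). CD44, the hyaluronan receptor, fell from 155 ± 15.2 to 104 ± 5.76 CPM (log2FC -0.58, SE 0.066, adjusted p = 9.12e-07). The other ficolins FCN2 and FCN3 had 0 counts in all libraries.

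Monocyte markers beyond the 10 were examined last. Of 20 genes 14 were tested, 9 were higher, 3 lower and 2 not called, with a median log2FC of 0.51. Among all genes tested, 23.1% were higher and 23.5% lower. The 9 include FCGRT, the neonatal Fc receptor already counted among the Fc receptor partners. The largest increase was that of S100A8, a calprotectin subunit (log2FC 3.45, SE 0.16, adjusted p = 2.61e-12), and the largest decrease was that of CX3CR1, the fractalkine receptor of nonclassical monocytes, from 16.5 ± 2.97 to 10.5 ± 1.81 CPM (log2FC -0.66, SE 0.13, adjusted p = 0.000688). Within replicates 1 and 2 the log2FC of CX3CR1 was -0.38 (adjusted p = 0.0201). CCR2, the chemokine receptor of classical monocytes, rose from 5.66 ± 0.447 to 12.6 ± 1.94 CPM (log2FC 1.16, adjusted p = 5.94e-07), and MNDA, a nuclear antigen of myeloid cells, from 16.4 ± 3.06 to 68.4 ± 8.23 CPM (log2FC 2.06, adjusted p = 1.18e-07). CCR2 and MNDA were chosen after their values were seen, and the other genes called lower are not named here. S100A12, VNN2, PLBD1, FPR1, CD300E and SERPINA1 did not pass the filter on low counts. SERPINA1 also has a second placement in the table, which leaves its level uncertain. The 7 lists of partners and other markers held 106 genes, with FCGRT counted once. Of these 74 were tested, 23 were higher and 22 lower, with a median log2FC of 0.018.

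**Figure D5:**
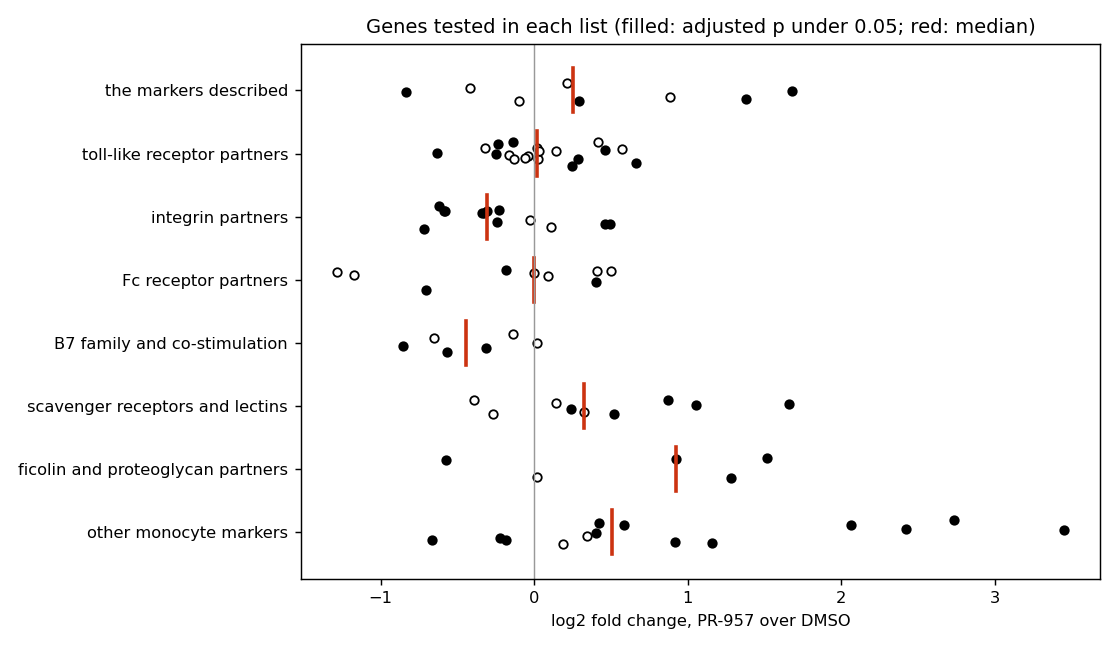
Each point is the log2FC of PR-957 over DMSO for 1 tested gene, by list, with filled points for an adjusted p under 0.05 and a red line at the median. Integrin partners lie mostly below 0 (median -0.30), and other monocyte markers mostly above (median 0.51).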

How the data were processed

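RNA from 8 MOLM-13 samples (4 DMSO, 4 PR-957) had been prepared with a TruSeq RNA kit and sequenced in pairs. Per the labels and file headers, the authors used Trimmomatic 0.39, STAR 2.7.10a on hg38 and featureCounts 2.0.1 with RefSeq gene models, both ends mapped and reverse strand. The sources used here do not give whether the kit marked strand or whether replicates were separate cultures, so p-values measure the spread between these samples, which may be technical. The deposited values are raw counts per gene. Of 38557 rows, 6 without values were left out. The authors' own table of fold changes and p-values was not used.

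Groups and replicate numbers came from sample titles. edgeR 4.0.16 in R 4.3.3 (TMM, filterByExpr, robust glmQLFit and glmQLFTest, two-sided, no covariate) tested 13179 genes holding 99.9% of counts, with Benjamini-Hochberg adjustment over all of them. SE is the absolute log2 fold change over the square root of F. Counts of 0 were read as at most 3, and intervals of ratios cover counting error only. Marker genes, partner lists and naming rule (all markers, LY96, ITGB2, FCER1G and the largest called change per list and direction at an average log2 CPM of at least 1) were set with earlier results of these data known. Other genes named were chosen after their values were seen. A gene that this rule names is not reported here. Alternatives were DESeq2 1.42.0, limma-voom (limma 3.58.1), other scalings and filters, a replicate block and a term for replicates 1 and 2 against 3 and 4. Each of these pairs alone and each library left out were further alternatives. The pairs are not a batch named in the labels. Fits were also run on simulated counts with the same spread for every gene and no library standing apart. That setting differs from these data, so it says nothing about calls that depend on DMSO replicate 4.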

Additional observations from a re-analysis of the deposited data

Results flagged for a closer look

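Among 56 groups of 4 libraries (28 named genes in DMSO and in PR-957), 3 held a library far from the others by Dixon's criterion. Chance alone gives about 1 in 20, and 3 of 56 is close to that rate. All 3 were the DMSO group with DMSO replicate 4 highest. ITGAM had 35.95 CPM there, where the next library had 21.4. ITGAX had 58.8 CPM, where the next had 25.9. ITGAL had 358 CPM, where the next had 315.9. ITGAL was called lower with all libraries and in every one of 19 alternatives, the fit without this library included (log2 fold change from -0.80 to -0.64), whereas the values of ITGAM and ITGAX depended on it as given above.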

How the results depend on the processing

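CD36 kept its direction and call in all 19 alternatives. Of 151 values of the 8 tested markers under alternatives, 125 kept direction and side of the threshold, 16 lost a call, 8 gained one and 2 turned. ITGAX turned to 0.0015 in replicates 1 and 2 only, and with 1 library left out its log2 fold change ran from -0.56 to 0.056, the latter without DMSO replicate 4. The number of markers called was 4, and 2 with limma-voom. The number lower was 1, and 0 with limma-voom and in replicates 1 and 2 only. With 1 library left out, the number called ran from 1 to 5, the number higher from 1 to 5 and the number lower from 0 to 1. Without DMSO replicate 4 it was 5 higher and 0 lower, and without DMSO replicate 3 it was 1 higher and 0 lower. At an unadjusted p under 0.05, limma-voom had 1 marker lower, and the fit of replicates 1 and 2 had 0, where DESeq2 on all libraries called 1 lower. Of the partner genes, 22 were lower, and 14 with library totals alone or in replicates 1 and 2 only. FCN1 has no value when genes needed 1 CPM or more in 4 libraries, or in replicates 1 and 2 only. Replicate numbers are shared between groups but are not said to mark a shared culture, and deviations from group means correlated over 0.1 for 3 of 4 numbers, with 7 of 8 samples closest to their own number. With a replicate block, 6913 genes were called in place of 6143, and 5 markers in place of 4, with TLR4 added (log2 fold change 0.93, adjusted p = 0.000101). The cause of these changes was not tested. Depth limits CD14 and VCAN, with 1 to 12 and 2 to 8 counts per PR-957 library.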

Other observations

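Beyond the genes above, FCGR2B and FCGR2C had the highest ratio of DMSO replicate 4 to the other DMSO libraries among the tested genes of the lists. FCGR2B, the inhibitory IgG receptor, had 85, 59, 99 and 616 counts in DMSO replicates 1 to 4 and 69, 63, 106 and 123 counts in PR-957 replicates 1 to 4. FCGR2C, a near-copy of FCGR2B whose counts are uncertain for that reason, had 40, 34, 36 and 292 counts in DMSO and 32, 33, 40 and 51 in PR-957. Their CPM in DMSO replicate 4 was 5.53 and 5.82 times the mean of the other DMSO libraries. FCGR2A, an activating IgG receptor, had a ratio of 1.76. None of these 3 was called (adjusted p = 0.253, 0.211 and 0.745). CD276, a B7 family member, and LRP1, a scavenger receptor, had ratios of 4.84 and 3.85. By list, DMSO replicate 4 was the highest DMSO library for 6 of 9 Fc receptor partners, 5 of 6 co-stimulatory genes, 3 of 5 ficolin and proteoglycan partners, 8 of 14 other monocyte markers, 7 of 13 integrin partners, 4 of 8 identity genes, 4 of 9 scavenger receptors and lectins, 7 of 19 toll-like receptor partners and 0 of 3 neutrophil markers. The share over all genes tested was 29.5%. These genes were chosen after their values were seen, and no test was made of this library against the others.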
